A study of Homo sapiens with 8 samples.

Results

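Glycolysis and the pentose phosphate pathway are described here through 33 transcripts, chosen by gene symbol from a table of 34415 genes and all found in it. They cover glucose uptake, each step from hexokinase to pyruvate kinase, lactate formation and transport, the entry of pyruvate into mitochondria, and the pentose phosphate pathway. The rule names symbols and no measured value, although earlier results of these data were known when the list was made.

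Glycolysis splits glucose into pyruvate in the cytosol, with a small yield of ATP and NADH. Endothelial cells are known for drawing most of their ATP from it even where oxygen is plentiful, and for passing much of the pyruvate to lactate. The pentose phosphate pathway branches off at glucose 6-phosphate, yields NADPH in its oxidative branch, and exchanges sugars with glycolysis through its non-oxidative branch. Many steps can be run by more than 1 isoform, each from its own gene, and isoforms differ in tissue and in regulation.

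The cells were TeloHAEC, a line of human aortic endothelial cells immortalized with telomerase, of wild-type genotype. Total RNA was sequenced from 4 control libraries and from 4 libraries of cells given estradiol, the main estrogen. According to the titles, all 8 libraries had palmitic acid, a saturated fatty acid, in the medium; the treatment field names it for the estradiol libraries only and reads Control for the others. Doses, times and the origin of the replicates (separate cultures or not) were not given in the sources used here, so the p-values reflect the scatter of these libraries alone, and that scatter may be technical.

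Levels are FPKM, fragments per kilobase of gene scaled to the depth of the library. Comparing them between genes rests on the gene lengths used, which reach 15188 bases for PDK1, 11697 for PFKFB2 and 11043 for GPI, and a long length lowers the level. Whole reads were recovered from the steps of the values, and a library held from 33421051 to 39899258 of them. Of 12 endothelial markers, 11 reached a mean of 1 FPKM. PECAM1 measured 42.6 ± 2.65 FPKM in the controls and 42.0 ± 2.79 with estradiol, and CDH5 129 ± 19.5 and 125 ± 15.2 (SD, n = 4 each). VWF, a defining marker, was low, at 0.231 to 0.362 FPKM. Of the markers of other cells, 1 of 8 for macrophages (CD68), 0 of 6 for fibroblasts, 2 of 5 for smooth muscle and 3 of 5 for epithelium reached 1 FPKM. Of the epithelial list, KRT19 averaged 48.9, KRT18 46.4 and KRT8 8.16 FPKM over the 8 libraries, against 0.00406 for EPCAM and 0.00143 for CDH1. CD68 averaged 39.6 FPKM, and ACTA2 and TAGLN of the smooth muscle list 11.8 and 7.26. Control replicate 3 and estradiol replicate 4 stood apart from the other 6 libraries for many genes. The labels name no batch. In bulk RNA, fewer cells of a type and less RNA per cell cannot be told apart.

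Transcript levels along the pathway ran from PFKFB2, at a mean of 0.632 FPKM over the 8 libraries, to GAPDH, at 1560.3. GAPDH, which oxidizes glyceraldehyde 3-phosphate, was the highest of the 33 in every library, and TALDO1 was second in every library at a mean of 437 FPKM. PGD and ENO1 came next, at 369 and 366, and traded places between libraries. Of the 33 genes, 31 had a mean of at least 1 FPKM, and 13 of these lay above the 90th percentile of the 10720 genes at this level. The means of PFKFB2 and PFKFB4 over the 8 libraries were under 1 FPKM. The 33 genes together held 1.23% to 1.29% of the summed FPKM in 6 libraries, 1.04% in control replicate 3 and 1.02% in estradiol replicate 4.

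**Figure D1:**
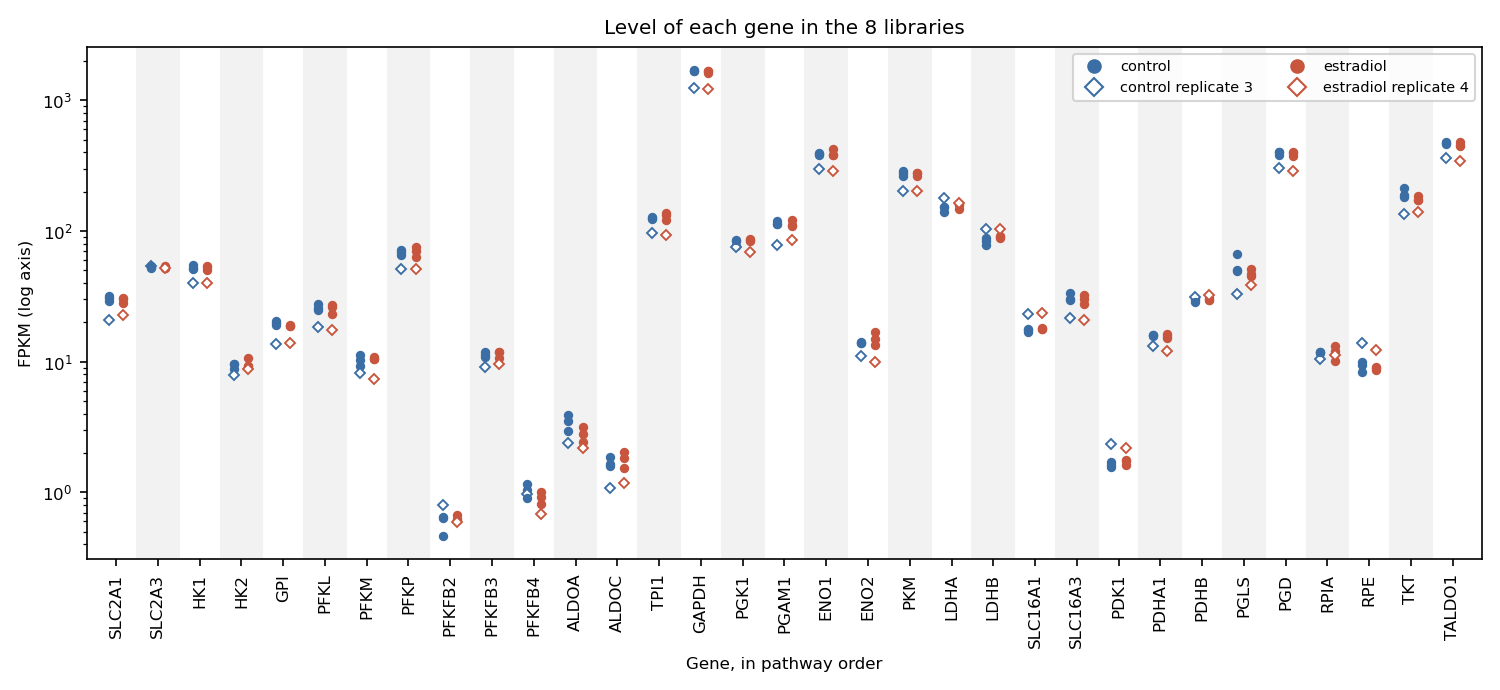
FPKM (log axis) of the 33 genes in pathway order, with 1 point for each library, control in blue and estradiol in red, and open diamonds for control replicate 3 and estradiol replicate 4. GAPDH lies on top at 1214 to 1696 FPKM, the groups overlap for all 33 genes, and the diamonds often lie at the edge.

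Of the 33 genes, 2 encode carriers for glucose uptake, and transcripts of both were present. Further carriers of the family, such as SLC2A6 described below, are left out of this step. SLC2A3, which encodes the high-affinity carrier GLUT3, measured 51.8, 53.2, 54.2 and 54.3 FPKM in control replicates 1 to 4 and 53.9, 52.5, 52.3 and 52.5 in estradiol replicates 1 to 4. It had the lowest coefficient of variation of the 33 genes, 1.79% over the 8 libraries. SLC2A1, which encodes GLUT1, the widespread basal carrier, measured 31.6, 28.9, 21.0 and 30.5 FPKM in the controls and 30.0, 30.8, 27.9 and 22.7 with estradiol. SLC2A1 was lowest in control replicate 3 and estradiol replicate 4, and the groups overlapped. Per length, SLC2A3 was 1.64 to 2.58 times as high as SLC2A1.

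HK1 was the higher of 2 hexokinase transcripts; hexokinase traps glucose in the cell as its 6-phosphate. HK1, the housekeeping form, measured 52.1, 51.4, 39.7 and 54.6 FPKM in the controls and 52.6, 53.5, 50.6 and 40.2 with estradiol. HK2, the form typical of muscle and many tumours, measured 8.83, 9.52, 7.86 and 9.53 in the controls and 10.7, 9.25, 9.33 and 8.71 with estradiol. Both were lowest in control replicate 3 and estradiol replicate 4. HK1 held 84.6 ± 0.905% of the summed FPKM of the pair in the controls and 83.7 ± 1.37% with estradiol (SD, n = 4 each). GPI, which turns glucose 6-phosphate into fructose 6-phosphate, measured 20.5, 19.2, 13.7 and 19.6 FPKM in the controls and 18.8, 19.2, 18.7 and 14.0 with estradiol.

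At phosphofructokinase, the committed step, the platelet form PFKP was highest. PFKP measured 64.6 ± 9.12 FPKM in the controls and 64.8 ± 10.4 with estradiol, PFKL (the liver form) 24.3 ± 4.00 and 23.6 ± 4.36, and PFKM (the muscle form) 9.80 ± 1.33 and 9.78 ± 1.58 (SD, n = 4 each). The highest library was 1.47 times the lowest for PFKP, 1.58 times for PFKL and 1.53 times for PFKM. Their shares of the step moved less. PFKP held 65.0% to 67.1% in the 8 libraries, PFKL 23.1% to 25.5% and PFKM 8.51% to 10.7%.

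The bifunctional PFKFB enzymes set the level of fructose 2,6-bisphosphate, a strong activator of phosphofructokinase. PFKFB3, the form with the highest ratio of kinase to phosphatase activity and a known regulator of vessel sprouting, held 86.5 ± 2.01% of their summed FPKM in the controls and 88.1 ± 0.307% with estradiol (SD, n = 4 each). The gap of 1.62 points was 0.673 without control replicate 3, where the share was 83.7%, and 0.612 without both libraries that stood apart. Its level was 11.2, 10.9, 9.10 and 11.8 FPKM in the controls and 11.9, 11.9, 10.6 and 9.62 with estradiol. PFKFB4 measured 1.15, 1.04, 0.980 and 0.904 in the controls and 1.00, 0.924, 0.810 and 0.684 with estradiol. Estradiol replicates 3 and 4 lay below every control library for PFKFB4, and the groups overlapped (exact permutation p = 0.143, two-sided). PFKFB2 measured 0.465, 0.641, 0.795 and 0.653 FPKM in the controls and 0.614, 0.627, 0.669 and 0.589 with estradiol, with both ends of its range among the controls (exact permutation p = 0.771, two-sided).

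Aldolase transcripts were low beside those of the neighbouring steps. ALDOA, the main aldolase of most tissues, measured 3.89, 2.95, 2.38 and 3.50 FPKM in the controls and 2.81, 2.45, 3.19 and 2.17 with estradiol, from 176 to 329 reads. TPI1, the isomerase that links the products of this step, measured 93.2 to 137 FPKM, and GAPDH was 436 to 666 times as high as ALDOA. In the RefSeq gene table (GRCh38.p14) ALDOA overlaps another gene, LOC112694756, which has a row of its own at 0.921 to 1.46 FPKM and 88 to 147 reads. How reads shared by overlapping genes were counted was not given in the sources used here, so the level of ALDOA is uncertain, and the part of the overlap in it was not tested. ALDOC, the brain form, measured 1.60, 1.87, 1.09 and 1.66 FPKM in the controls and 1.54, 2.05, 1.83 and 1.19 with estradiol. ALDOA held 67.1 ± 4.17% of the pair in the controls and 61.8 ± 4.94% with estradiol (SD, n = 4 each), a share that the same uncertainty touches.

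GAPDH, PGK1, PGAM1, ENO1 and PKM form the steps from glyceraldehyde 3-phosphate to pyruvate, where ATP and NADH are made. GAPDH measured 1696, 1662, 1250.2 and 1687 FPKM in the controls and 1664, 1629.6, 1679.5 and 1214 with estradiol. Control replicate 3 and estradiol replicate 4 lay well below the other 6, which spanned 1629.6 to 1696. PKM, pyruvate kinase, ranged from 201 to 285 FPKM. PGK1, phosphoglycerate kinase, measured 76.2, 83.6, 75.7 and 85.8 in the controls and 84.3, 86.9, 85.9 and 69.6 with estradiol, and PGAM1, phosphoglycerate mutase, ranged from 78.3 to 121 FPKM. The last 3 too were lowest in control replicate 3 and estradiol replicate 4. ENO1, the ubiquitous enolase, held 96.5 ± 0.0901% of the enolase FPKM in the controls and 96.4 ± 0.234% with estradiol (SD, n = 4 each). ENO2, known as the neuronal enolase, stood at 13.3 ± 1.49 FPKM in the controls and 13.8 ± 2.84 with estradiol. RefSeq names 65 pseudogenes after GAPDH and 13 after PGAM1. For 18 of the 33 genes it names 122 in all, 0 of which have a row in the table, so the levels of genes with near-identical copies are uncertain.

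Both subunits of lactate dehydrogenase were abundant. LDHA, the subunit typical of muscle, which favours lactate formation, measured 139.5, 152, 177 and 152 FPKM in the controls and 148, 160.2, 159 and 164 with estradiol. LDHB, the subunit typical of heart, measured 78.1, 83.9, 103 and 88.9 in the controls and 90.8, 88.1, 90.6 and 103 with estradiol. Both were highest in control replicate 3 and estradiol replicate 4, and LDHA was 1.60 to 1.82 times as high as LDHB.

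Lactate crosses the membrane through carriers encoded by SLC16A1 (MCT1) and SLC16A3 (MCT4, typical of cells that export lactate). SLC16A3 measured 33.5, 29.4, 21.7 and 30.2 FPKM in the controls and 32.2, 30.3, 27.7 and 20.8 with estradiol. SLC16A1 measured 17.7, 17.3, 23.2 and 16.8 in the controls and 18.1, 17.9, 17.7 and 23.4 with estradiol. The order of the pair was reversed in 2 libraries: SLC16A1 held 34.6% to 39.0% of the summed FPKM in 6 libraries but 51.7% in control replicate 3 and 52.9% in estradiol replicate 4.

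The promoters of LDHA, LDHB and PGK1 are shown because these transcripts have a like, low GC content (the percentage of G and C: 44.0%, 46.5% and 43.3%), yet LDHA and LDHB were highest and PGK1 lowest in the same 2 libraries. Each is the RefSeq window from 250 bases before to 50 after the gene start (GRCh38.p14), read 5′ to 3′ on the gene's strand. Capitals mark ACGTG or GCGTG on either strand, the core letters of the hypoxia response element bound by HIF factors, and a run of CACGTG counts on both strands. The LDHA window is chr11:18394313-18394612 on the plus strand. The LDHB window is chr12:21657793-21658092 on the minus strand. The PGK1 window is chrX:78103998-78104297 on the plus strand.
LDHA: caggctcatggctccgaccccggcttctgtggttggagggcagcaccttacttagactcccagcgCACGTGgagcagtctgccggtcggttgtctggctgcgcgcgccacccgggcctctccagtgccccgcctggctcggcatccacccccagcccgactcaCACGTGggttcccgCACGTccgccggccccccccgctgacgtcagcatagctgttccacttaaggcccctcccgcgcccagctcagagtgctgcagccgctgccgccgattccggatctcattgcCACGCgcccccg
LDHB: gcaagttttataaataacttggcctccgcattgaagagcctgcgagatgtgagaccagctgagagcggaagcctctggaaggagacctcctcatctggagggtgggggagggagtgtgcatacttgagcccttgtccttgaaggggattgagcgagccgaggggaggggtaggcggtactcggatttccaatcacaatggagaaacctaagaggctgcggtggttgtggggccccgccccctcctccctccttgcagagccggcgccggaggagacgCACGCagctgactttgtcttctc
PGK1: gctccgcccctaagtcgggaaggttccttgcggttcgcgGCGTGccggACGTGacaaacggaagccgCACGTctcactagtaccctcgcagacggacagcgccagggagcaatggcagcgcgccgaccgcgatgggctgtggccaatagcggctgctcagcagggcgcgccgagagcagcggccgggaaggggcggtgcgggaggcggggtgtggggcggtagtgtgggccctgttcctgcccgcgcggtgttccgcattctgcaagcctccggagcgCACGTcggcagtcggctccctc
LDHA held 6 matches in 4 stretches, LDHB held 1 and PGK1 held 4. The higher isoform of a pair did not always hold more: HK2 held 3 and HK1 held 0, and ALDOC held 5 and ALDOA held 1. Among the 30 genes with an entry, 19 (63.3%) held at least 1 match, against 64.8% of the promoters of 8746 genes with a mean of at least 1 FPKM and 48.4% of all 35116 promoters of this length. SLC2A3, PFKFB2 and SLC16A1 had no entry. Only the window at the gene start was read, so any transcript that starts elsewhere was not covered. These matches describe letters and not sites of binding.

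Pyruvate that is not turned to lactate enters mitochondria and pyruvate dehydrogenase. The transcripts of its E1 subunits, PDHB and PDHA1, ranged from 28.8 to 32.1 FPKM and from 12.2 to 16.4 FPKM. PDK1, a kinase that switches the complex off, measured 1.56, 1.72, 2.33 and 1.63 FPKM in the controls and 1.73, 1.76, 1.62 and 2.19 with estradiol, highest in control replicate 3 and estradiol replicate 4. The gene length that the authors' values imply for PDK1 is 15188 bases, so its 892 to 1326 reads give a low FPKM, while for PDHB it is 1507 bases, with 1480 to 1877 reads.

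Several transcripts of the pentose phosphate pathway were as high as those of lower glycolysis. PGD, which makes NADPH from 6-phosphogluconate, measured 399, 384, 304 and 401 FPKM in the controls and 398, 402, 377 and 289 with estradiol. PGLS, the lactonase before it, measured 66.7, 49.0, 32.9 and 50.4 in the controls and 51.2, 46.5, 45.3 and 38.3 with estradiol, with its highest and its lowest value both among the controls. TALDO1 and TKT, the transaldolase and transketolase that pass carbon back to glycolysis, ranged from 340.3 to 483 and from 135 to 214 FPKM. RPIA, an isomerase, and RPE, an epimerase, interconvert the pentose phosphates and were far lower, at 10.2 to 13.1 and 8.37 to 13.8 FPKM.

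**Figure D2:**
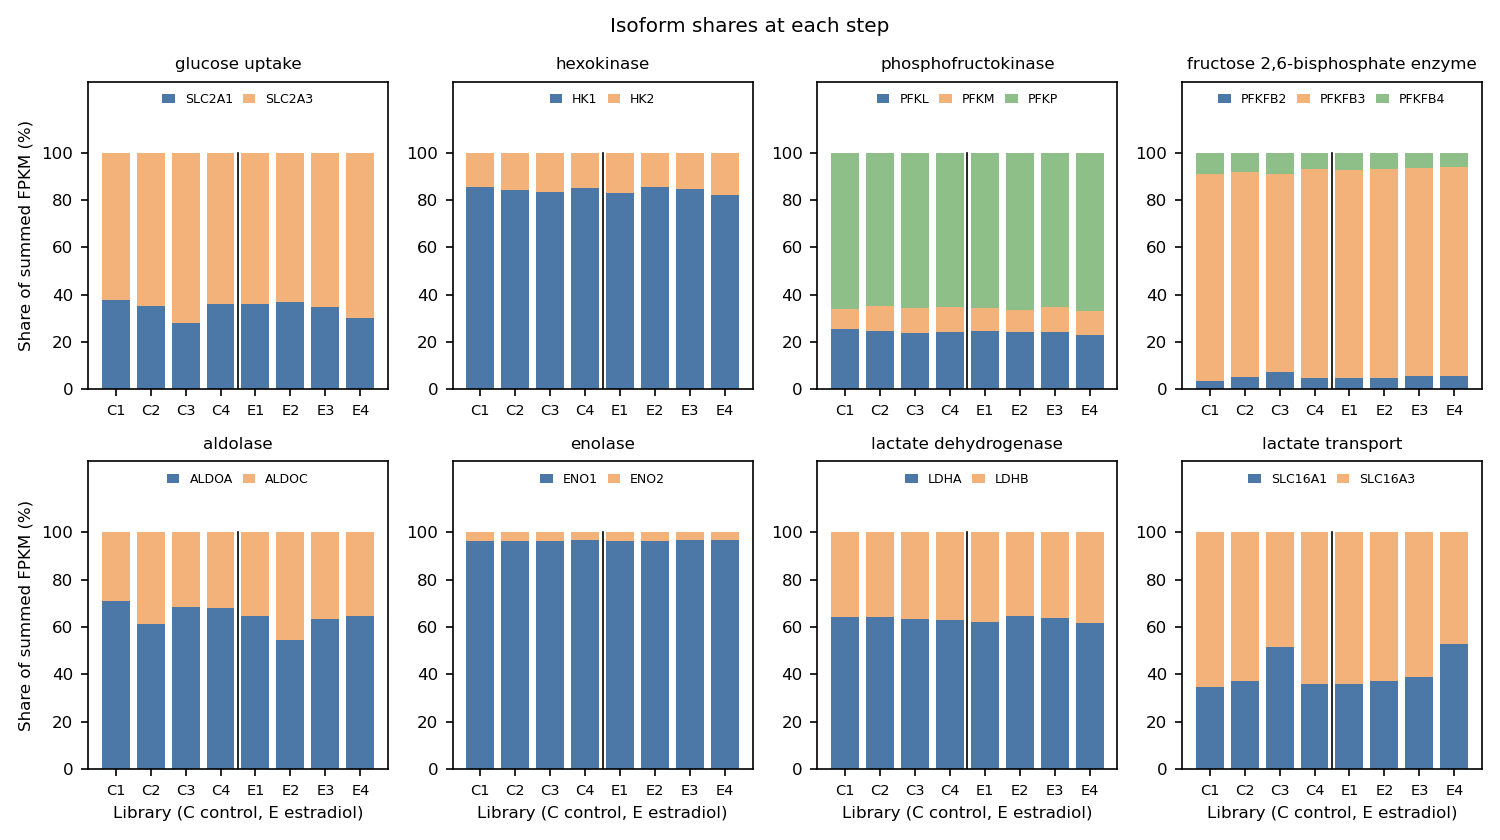
Share of summed FPKM (%) held by each isoform at 8 steps, with 1 bar for each library (C1 to C4 control, E1 to E4 estradiol). The phosphofructokinase, enolase and lactate dehydrogenase bars look alike in the 8 libraries, while SLC16A1 reaches 51.7% in C3 and 52.9% in E4 against 34.6% to 39.0% elsewhere.

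Estradiol was then compared with control for each gene. Of the 31 tested genes, 0 passed limma's test on log2(FPKM + 1) with Benjamini-Hochberg adjustment over 10720 genes (lowest adjusted p = 0.999989), as did 0% of all genes. Without adjustment, 26 genes (0.243%) had a p under 0.05, 0 of them among the 31. That number was 413 without control replicate 3 and estradiol replicate 4 and 351 with a term for them, with 0 genes passing in either fit, and the median SE over all genes went from 0.12 to 0.06 in both. limma-voom on recovered reads also called 0 genes, with 22 at an unadjusted p under 0.05. Of the 31, 16 had values above 0 and 15 below, with a median log2 fold change of 0.00078 against -0.00047 over all genes tested. The groups overlapped for all 33 genes. Over all genes tested, the groups did not overlap in 0.532%, with 0.308% higher and 0.224% lower with estradiol.

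Differences in single genes were small beside their errors. ALDOA had the lowest log2 fold change, -0.19 ± 0.13 (SE, 95% interval -0.48 to 0.11), with 3.18 ± 0.659 FPKM in the controls and 2.65 ± 0.442 with estradiol (SD, n = 4 each). Its level rests on 176 to 329 reads and is uncertain, since the counting of reads shared with an overlapping gene was not given. HK2 had the highest, 0.08 ± 0.10 (SE, 95% interval -0.13 to 0.29), with 8.93 ± 0.787 and 9.51 ± 0.870 FPKM, but only 0.03 without control replicate 3 or without estradiol replicate 1. LDHB had 0.08, which was 0.15 without control replicate 3. PGLS had the widest interval, at -0.10 ± 0.19 (SE, 95% interval -0.52 to 0.32), and its value went from -0.28 without control replicate 3 to 0.06 without control replicate 1. For all 31 genes the interval lay within a change of 1.5 times in FPKM + 1 in either direction, as it did for 98.4% of all genes tested. For ALDOA it reached past this limit with a pseudocount of 0.1 (to -0.63) and with limma-voom (to -0.66), and for PGLS without estradiol replicate 1 (to -0.63), 2 or 3 (to -0.59 each).

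**Figure D3:**
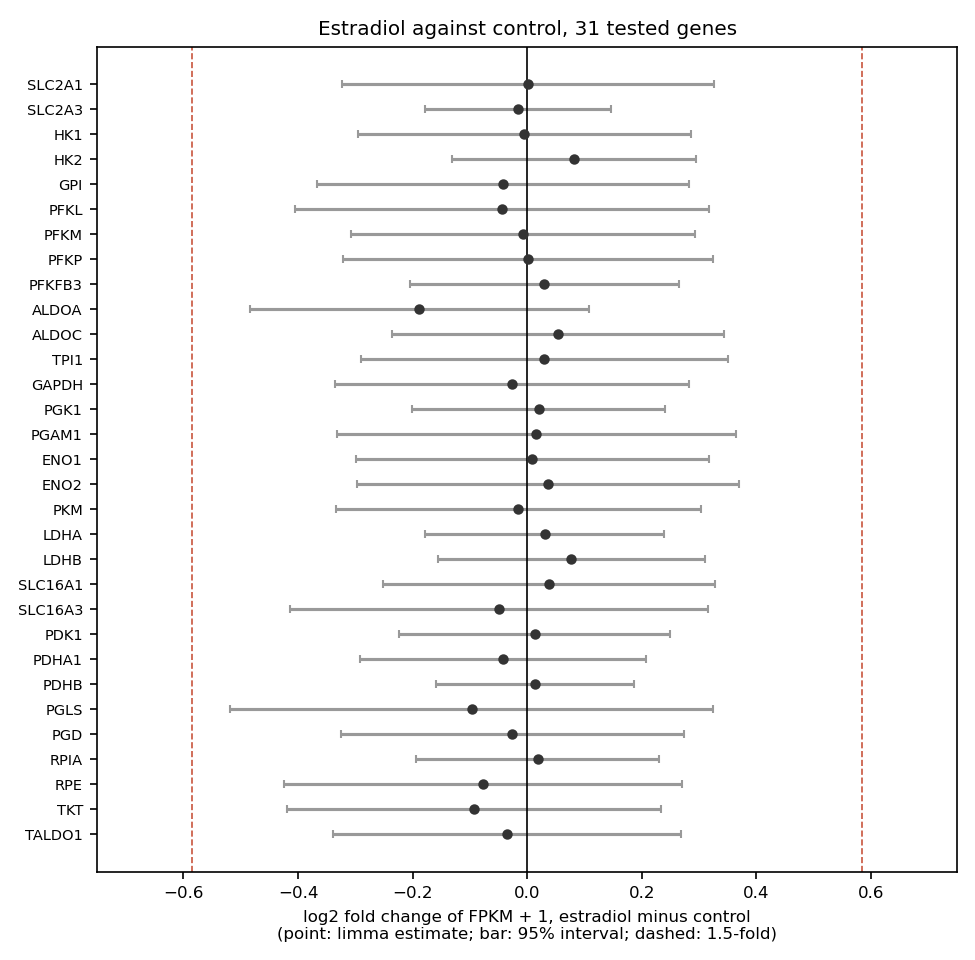
log2 fold change of FPKM + 1, estradiol minus control, for the 31 tested genes (points), with 95% intervals from limma (bars) and dashed lines at 1.5 times in each direction. Every interval includes 0, and ALDOA lies lowest at -0.19.

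Isoform shares were compared in the same way, with 12 tests. None passed an exact two-sided permutation test over 70 relabellings, whose smallest possible p is 0.0286. Even at that p, a share could not pass adjustment over the 12 on its own, so the lack of calls says little. The lowest p belonged to the share of PFKFB4, 8.25 ± 1.04% in the controls and 6.82 ± 0.469% with estradiol (exact permutation p = 0.0857, adjusted over the 12 p = 0.571). PFKFB3 followed (exact permutation p = 0.114) and then ALDOA (exact permutation p = 0.143), both with an adjusted p of 0.571. Within a step a higher share of an isoform means a lower share of the others, so the results for PFKFB4 and PFKFB3 are not independent. The SLC16A1 share was 39.8 ± 8.03% in the controls and 41.3 ± 7.87% with estradiol (exact permutation p = 0.486, adjusted p = 0.724).

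In the 6 libraries other than control replicate 3 and estradiol replicate 4, 2 of the 31 tested genes had groups that did not overlap, against 9.52% of all genes tested. GPI measured 19.2 to 20.5 FPKM in the controls and 18.7 to 19.2 with estradiol, and SLC16A1 16.8 to 17.7 and 17.7 to 18.1 FPKM. No gene of the 31 passed limma there, and ALDOA had a log2 fold change of -0.22 (adjusted p = 0.991).

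Much of the variation among the 33 genes lay in these 2 libraries. In 23 of the 31 tested genes they held the 2 lowest values, against 43.9% of all genes tested. In 6 of the 31 they held the 2 highest, against 34.6%. The 6 were LDHA, LDHB, SLC16A1, PDK1, PDHB and RPE. The 23 took in every tested gene from GPI to PKM, with PGLS, PGD, TKT and TALDO1 of the pentose phosphate pathway, and SLC2A1, HK1, HK2, SLC16A3 and PDHA1.

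**Figure D4:**
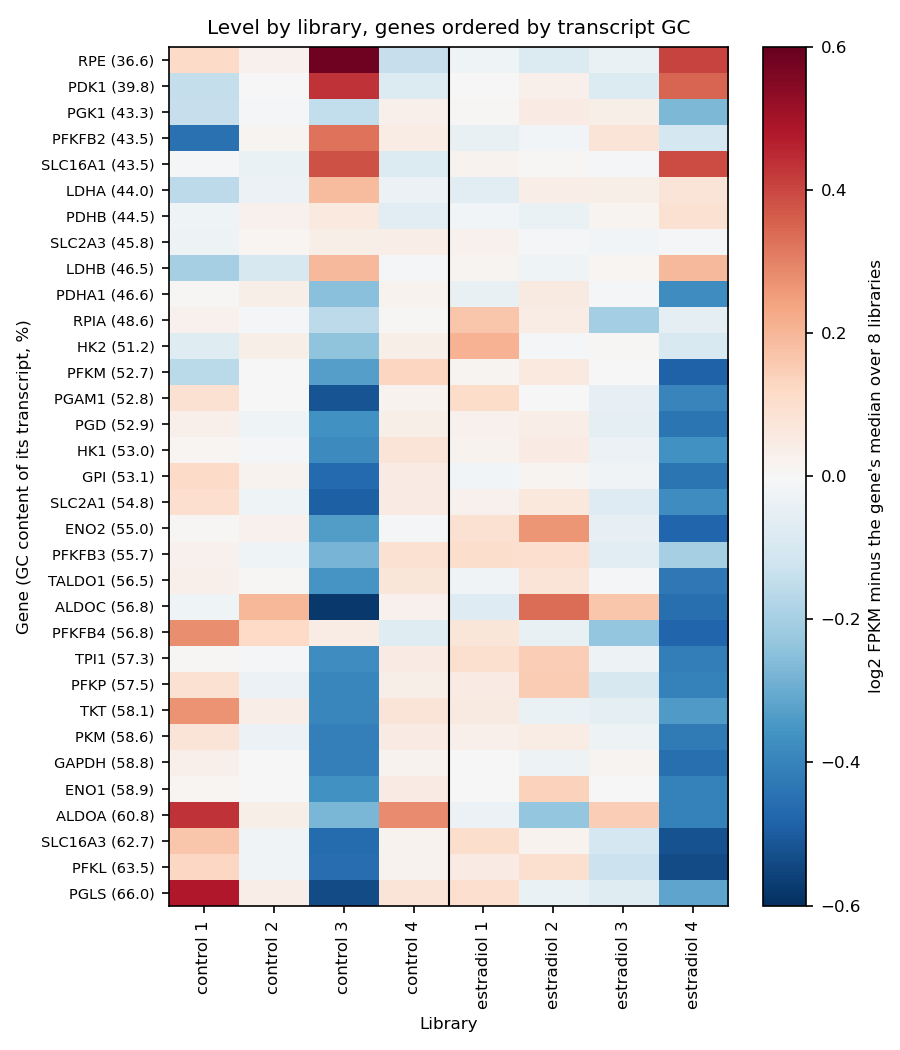
log2 FPKM of the 33 genes in each library minus the gene's median over 8 libraries (colour), with genes ordered by the GC content of their transcript (% in brackets). The columns of control replicate 3 and estradiol replicate 4 run from red at the top, where RPE has 36.6% GC, to blue at the bottom, where PGLS has 66.0%.

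Base composition moved with this split. GC content in the longest protein-coding transcript of GENCODE 29 was 36.6% to 46.5% in the 6 genes that were highest in these libraries and 43.3% to 66.0% in the 23 that were lowest. Its median was 53.1% over the 33 genes and 48.3% over all tested genes with a GC value. Across the 31 tested genes, which share their libraries and are not independent, its rank correlation with the deviation of control replicate 3 from the median of the other 3 controls was -0.791. For estradiol replicate 4 it was -0.670, and over all genes with a GC value it was -0.891 and -0.864. Among the other 6 libraries it ranged from -0.334 to 0.658 over the 31 genes and from -0.364 to 0.672 over all genes with a GC value. The median that these libraries were set against always included control replicate 3 or estradiol replicate 4. PGK1 had 43.3% GC and log2 deviations of -0.14 and -0.30, where LDHA had 0.22 and 0.04. PGK1 was not alone: PDHA1, at 46.6% GC, had -0.26 and -0.34, where LDHB, at 46.5%, had 0.29 and 0.18. The part of GC content in these levels was not tested.

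**Figure D5:**
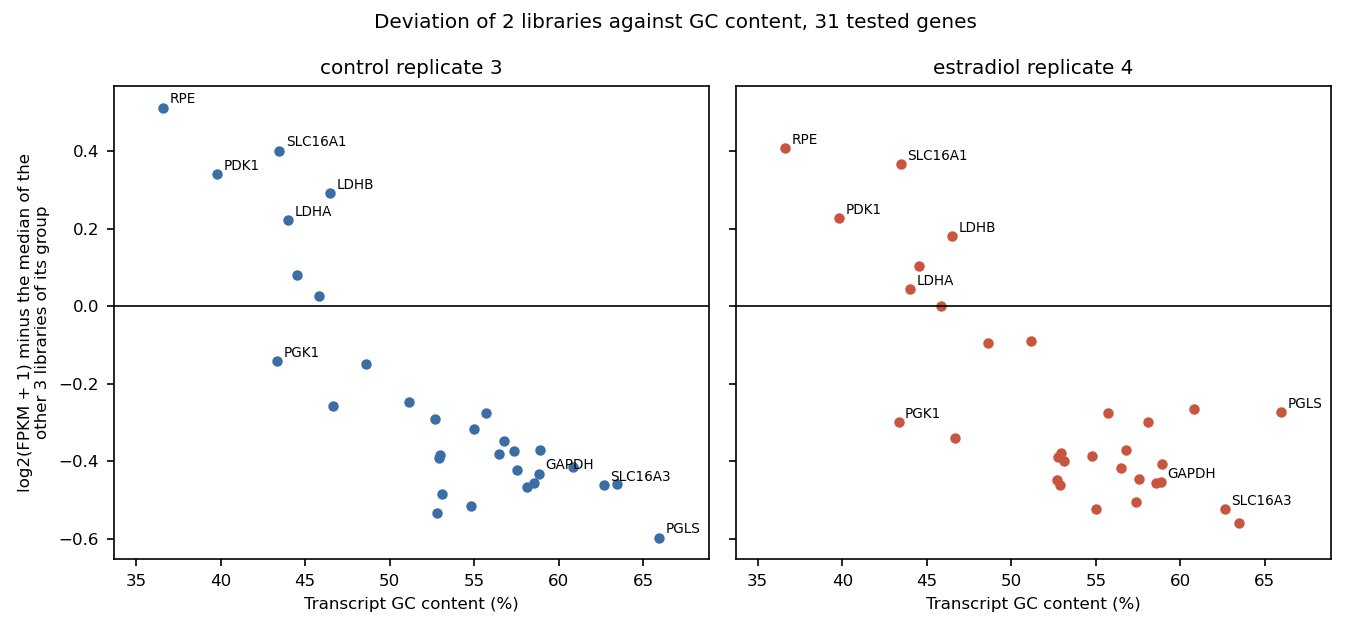
Deviation of control replicate 3 (left) and estradiol replicate 4 (right) from the median of the other 3 libraries of the group, in log2(FPKM + 1), against transcript GC content (%), with 1 point for each of the 31 tested genes. Points fall from RPE at the upper left to the lower right, and PGK1 lies below genes of like GC content.

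Among 54 further genes of the pathway, 25 reached a mean of 1 FPKM and 0 passed limma in either direction, with 0 at an unadjusted p under 0.05. Their median log2 fold change was -0.02, with 9 values above 0 and 16 below. BSG, the chaperone of the lactate carriers, stood highest at 188 ± 28.5 FPKM in the controls and 184 ± 27.2 with estradiol (SD, n = 4 each). HIF1A, the hypoxia factor that activates many glycolytic genes, measured 48.9 ± 8.71 and 48.8 ± 10.1, and DLD, the E3 subunit of pyruvate dehydrogenase, 30.7 ± 6.11 and 29.7 ± 4.95. Above 0, the smallest unadjusted p values belonged to BPGM, a mutase that makes 2,3-bisphosphoglycerate, at 18.2 ± 1.53 and 19.7 ± 2.04 FPKM, and to PRPS1, which turns ribose 5-phosphate into a nucleotide precursor, at 8.87 to 10.9 FPKM over the 8 libraries. Below 0 they belonged to TXNIP, an inhibitor of glucose uptake, at 19.0 ± 0.713 and 18.0 ± 0.713 FPKM, and to PDP1, a phosphatase that reactivates pyruvate dehydrogenase, at 30.1 ± 4.94 and 27.7 ± 2.31.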

How the data were processed

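The authors deposited FPKM values, 1 row for each gene symbol and 1 column for each of the 8 libraries, whose group and number came from the titles. The submitters' processing notes name fastp 0.20.1 and HTSeq, without a version. The aligner, genome build, annotation, strand setting and treatment of shared reads were not given in the sources used here.

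Whole reads, gene lengths and library totals were recovered from the steps of the FPKM values: 100% of 152348 values above 0 were rebuilt within a relative tolerance of 1e-06. Differences were tested two-sided with limma 3.58.1 (R 4.3.3; trend option) on log2(FPKM + 1), for genes with a mean of at least 1 FPKM, with Benjamini-Hochberg adjustment over all of them at 0.05. Fold changes on this scale understate low genes. The 2 genes under the filter and the isoform shares (percent of the step's summed FPKM) had exact permutation tests (Python 3.11.15). Promoters and gene overlaps came from RefSeq tables (GRCh38.p14) matched by symbol. The fits were tested on simulated data with independent noise in each value. The simulation left out the shift shared by control replicate 3 and estradiol replicate 4, so it does not cover that feature of the real values.

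Members, lists, the rule for named genes and the alternatives were chosen with earlier results of these data known. All 33 members are named, and of the further genes the 4 with the highest mean and the 2 with the smallest p in each direction; 1 gene of that rule is not reported here. Alternatives were another pseudocount, filter, scaling or spread model, the replicate number as a block, a term for the 2 libraries apart or their removal, each library left out in turn, and recovered reads.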

Additional observations from a re-analysis of the deposited data

Results flagged for a closer look

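A library was singled out where its distance to the nearest of the other 3 libraries of its group took most of the group's range (Dixon's 95% limit). Chance does this in about 1 of 20 groups, and 16 of 90 groups of values were singled out. Of these, 8 were control replicate 3 and 6 were estradiol replicate 4, the libraries that stood apart. The groups of values share their libraries, and the shares are built from the same genes. They are not independent, so the count cannot be tested against the rate of chance.

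In control replicate 3, TPI1 stood at 96.0 FPKM against 124 to 129 in the other controls, GAPDH at 1250.2 against 1662 to 1696, PGAM1 at 78.3 against 113 to 119, ENO1 at 297 against 381 to 395, ENO2 at 11.0 against 13.9 to 14.2 and PDHA1 at 13.2 against 15.8 to 16.1. In the same library SLC16A1 was high, at 23.2 FPKM against 16.8 to 17.7, and its share of lactate transport was 51.7% against 34.6% to 37.1%.

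In estradiol replicate 4, GPI stood at 14.0 FPKM against 18.7 to 19.2 in the other estradiol libraries, PFKM at 7.42 against 10.4 to 10.8, GAPDH at 1214 against 1629.6 to 1679.5 and PGK1 at 69.6 against 84.3 to 86.9. SLC16A1 was high there, at 23.4 FPKM against 17.7 to 18.1, and so was RPE, at 12.2 against 8.69 to 9.04.

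The other 2 were in other libraries. SLC2A3 stood at 53.9 FPKM in estradiol replicate 1 against 52.3 to 52.5, a small step in a steady gene. The share of ALDOA in aldolase FPKM was 54.4% in estradiol replicate 2 against 63.5% to 64.6%, from 176 reads of ALDOA, the fewest of any library.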

How the results depend on the processing

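Under all 18 alternatives limma passed 0 of all genes, of the 33 genes and of the further genes, and 0 isoform shares passed the exact test under any of its 10. A call that is never made shows nothing about stability, and with 1 library left out (smallest p 0.0571) or 2 (smallest p 0.10) no share could pass. With all libraries in, a share at the smallest p could not pass the adjustment on its own. Genes at an unadjusted p under 0.05 numbered 26 as reported, and from 4 (filter at 5 FPKM) to 437 (no filter, where the lowest adjusted p of any gene was 0.0809); they numbered 183 without control replicate 3 and 82 without estradiol replicate 4. Fold changes of the 31 tested genes took another sign in 75 of 555 values, and 5 genes (ALDOA, HK2, LDHB, SLC2A3 and TKT) kept theirs under every alternative that tested them. ALDOA was below 0 in every limma fit that held it, from -0.29 without control replicate 3 (unadjusted p 0.0345, adjusted p 0.791) to -0.11 without control replicate 1. With a term for the 2 libraries apart it had an unadjusted p of 0.0476 and an adjusted p of 1.00. Its share of aldolase differed by -5.35 points as reported and by -2.89 without estradiol replicate 2. The uncertain counting of ALDOA reads touches all these values. The SLC16A1 share was 39.8% in the controls and 41.3% with estradiol as reported; the difference was 5.48 points without control replicate 3, -2.39 without estradiol replicate 4 and -0.232 without control replicate 1. Counted in reads, not per length, SLC16A1 held 48.5% of its pair on average, against 40.5% by FPKM, and PFKFB2 10.4% of its step, against 5.14%. Between libraries of the same replicate number, the correlations of deviations were 0.616, 0.0728, -0.478 and -0.737 for numbers 1 to 4. The 2 libraries apart carry different numbers, so these values cannot show whether the numbers pair the libraries. With the replicate number as a block, 0 genes passed and 11 had an unadjusted p under 0.05.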

Other observations

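Several isoforms tied to other tissues were nearly absent. The genes of this paragraph were picked from the list of further genes after their values were seen. HK3, a hexokinase of white blood cells, averaged 0.0137 FPKM over the 8 libraries, and PKLR, the pyruvate kinase of liver and red cells, 0.0183. SLC2A4, the insulin-responsive carrier GLUT4, averaged 0.00426 FPKM, from at most 3 reads. The testis gene PGK2 had 0 reads in all 8 libraries. HKDC1, a further hexokinase, and ENO3, the muscle enolase, were above these, at 0.565 and 0.663 FPKM. SLC2A6, a carrier of the same family as SLC2A1, stood at 14.9 to 29.1 FPKM.

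RBKS, the ribokinase that feeds ribose into the pentose phosphate pathway, was under the filter and was also picked after its values were seen. It measured 0.376, 0.330, 0.203 and 0.244 FPKM in control replicates 1 to 4 and 0.409, 0.531, 0.430 and 0.392 in estradiol replicates 1 to 4. The groups did not overlap. How often this happens was counted only for genes above the filter (0.532%), a share that does not apply to RBKS. RBKS had an exact permutation p of 0.0286, the smallest possible, which any gene with groups that do not overlap would get. It was 0.771 after adjustment over the 27 further genes under the filter with any read. At the smallest p, no gene of the 27 could pass this adjustment on its own. The RBKS values rested on at most 42 reads in a library.

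PDK4, a pyruvate dehydrogenase kinase known to be induced by fatty acids, averaged 0.814 ± 0.225 FPKM in the controls and 0.573 ± 0.135 with estradiol (SD, n = 4 each, exact permutation p = 0.0857, adjusted p = 0.949). It too was picked after its values were seen.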
